A study of Mus musculus with 54 samples.

Results

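The regions described here are the binding sites of the transcription factor Fli1 that lay outside promoters and that did not coincide with a site of the transcription factor Ikzf1, in wild-type (Wt) B-cell progenitors of mouse fetal liver. They were selected on measured values, namely the call of a Fli1 peak, an annotation other than promoter-TSS, and the absence of any shared base with a called Ikzf1 peak. This gave 18218 of the 27261 Fli1 peaks, out of 33002 Fli1 and Ikzf1 peaks in all. The other Fli1 peaks were 2983 distal peaks with an Ikzf1 peak, 4933 promoter peaks without Ikzf1 and 1127 promoter peaks with Ikzf1. "Distal" is therefore the authors' annotation and not a distance, and 1926 of the members (10.6%) lay less than 1 kb from a transcription start, all downstream of it.

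The study asked how far the chromatin of B-lineage genes is prepared in progenitors that lack the factors of B-cell commitment. Its 54 labelled samples came from fetal liver cells labelled ProB on the C57BL6/J background, of the genotypes Ebf1-KO, E2A-KO and Wt, all cultured on OP9 stroma in the presence of interleukin-7 and the ligands of KIT and FLT3, and from the Abelson-virus-transformed progenitor B cell line 230-238. Ebf1-KO cells that carried the retroviral vector pMiG-Ebf1ER, a fusion of Ebf1 that 4-hydroxytamoxifen (4OHT) activates, had been exposed to 4OHT for 0, 6, 24 or 72 h. The labels gave neither ages nor the sex of the fetuses. Fli1 and Ikzf1 peaks came from 1 Wt ChIP-seq library each, fixed with DSG and formaldehyde, against an input library. Accessible regions (Omni-ATAC-seq) and promoter-anchored contacts (H3K4me3 PLAC-seq) came from 1 list each over 2 samples of the 230-238 line. The accessible and contact lists therefore come from a transformed line, and the Fli1 list from primary cells.

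Fli1 belongs to the ETS family, whose DNA-binding domain recognises a GGAA core with flanking bases that differ between members. It is known as a regulator of blood stem cells, megakaryocytes and endothelium. Ikzf1 (Ikaros) is a zinc-finger factor of the lymphoid lineage that both opens and silences genes. Ebf1 and E2A (the product of Tcf3) act in sequence to start the B-cell programme, and Pax5 follows them. BRG1 is a catalytic subunit of SWI/SNF chromatin remodellers, and EP300 is an acetyltransferase found at active enhancers.

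Where a member's centre fell inside a promoter window of RefSeq (250 bases before to 50 after an annotated start, build GRCm38.p6), its sequence could be shown. These 276 members, in 296 windows, were distal in the authors' annotation but lay at starts that RefSeq annotates. The sequences below are the parts of these windows within 60 bases of the peak centre, chosen because they carry 1 of 2 ETS words of 7 bases, CCGGAAG or CAGGAAG, on either strand. The word is in capitals and reads as CTTCCGG or CTTCCTG where it lies on the other strand of the printed sequence. The first is from the intergenic peak with a score of 73.4, nearest Ezr in the peak list, at chr17:6828017-6828101 on the minus strand, and the second from a peak of score 54.8 at chr15:60141717-60141825 on the plus strand. Then come 2 windows on the minus strand, an intron peak of score 53.4 nearest Ipo11 at chr13:106836342-106836462 and a peak of score 49.1 nearest Mvb12b at chr2:33908400-33908517. The next is from a peak of score 44.8 upstream of Arid3b at chr9:57836843-57836963 on the minus strand. The last is from a peak of score 37.6 at chr9:119744012-119744132 on the plus strand, nearest Scn10a in the peak list.
Gm2885: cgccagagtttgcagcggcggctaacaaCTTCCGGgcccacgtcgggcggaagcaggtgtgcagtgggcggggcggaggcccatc
Gm41331: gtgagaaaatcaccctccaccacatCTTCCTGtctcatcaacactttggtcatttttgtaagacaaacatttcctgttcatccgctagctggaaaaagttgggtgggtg
Ipo11-lrrc70: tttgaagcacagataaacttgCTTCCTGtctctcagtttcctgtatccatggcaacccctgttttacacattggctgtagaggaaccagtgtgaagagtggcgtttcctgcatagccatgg
Gm39792: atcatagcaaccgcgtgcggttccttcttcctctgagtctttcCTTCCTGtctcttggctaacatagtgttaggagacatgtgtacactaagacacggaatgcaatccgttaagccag
Arid3b: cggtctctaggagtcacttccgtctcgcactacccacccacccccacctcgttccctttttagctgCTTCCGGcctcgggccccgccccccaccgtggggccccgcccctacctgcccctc
Gm33701: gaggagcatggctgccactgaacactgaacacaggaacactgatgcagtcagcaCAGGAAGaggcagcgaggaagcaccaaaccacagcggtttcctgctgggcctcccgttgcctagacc
In the last of these the word lay 3 bases from the peak centre, and in the Arid3b window it lay 9 bases from it. Of the 6 peaks, 5 lay in accessible regions of the 230-238 line, all but the one nearest Ipo11, and 4 in a bin of a listed contact, all but those nearest Ipo11 and Mvb12b.

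The word CCGGAAG, with its CG step, was in 15.9% of the 296 windows under members (95% Wilson interval 12.2–20.5), against 32.2% of 3271 windows under promoter Fli1 peaks without Ikzf1. The word CAGGAAG went the other way, with 30.4% (25.4–35.9) under members and 15.1% (13.9–16.3) under promoter Fli1 peaks. Windows with no Fli1 peak held these words in 3.41% and 12.8% of 24981 cases, and all 32817 windows in 8.86% and 13.3%. Either word was in 42.2% of windows under members, 43.4% under promoter peaks, 15.7% without a Fli1 peak and 20.9% of all windows. The windows differed in base composition, with a median of 12.5 CG dinucleotides under members, 23 under promoter Fli1 peaks and 5 without a Fli1 peak. Among windows with 5 to 14 CG dinucleotides, CCGGAAG was in 19.3% of 83 under members and 22.5% of 453 under promoter peaks, and CAGGAAG in 43.4% (33.2–54.1) and 27.4%. With 0 to 4 CG dinucleotides, CAGGAAG was in 44.1% of 68 windows under members and 45.1% of 102 under promoter peaks, and CCGGAAG in 0 of 68 and 2.94%. With 15 or more, CCGGAAG was in 21.4% of 145 windows under members and 34.9% of 2716 under promoter peaks, and CAGGAAG in 16.6% and 11.9%. Where a word was present under a member, the median distance of the nearest one from the peak centre was 43 bases, and 95 of 125 such windows had it within 100 bases. These windows are 296 starts of transcripts and do not stand for all 18218 members, whose own sequences were not examined.

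The peak score, which the rule's peak call itself set, is given as a description. Members had a median score of 13.3 (quartiles 9.53 and 20.0, range 5.72 to 846.6), against 26.7 for distal peaks with Ikzf1, 21.9 for promoter peaks without Ikzf1 and 28.1 for promoter peaks with it. All peaks were 352 bp wide. The highest score, 846.6, lay in a GSAT_MM satellite of an unplaced contig, and the next 2, at 232.5 and 203.0, in L1 repeats of the Y-linked locus of Erdr1. None of these 3 was in an accessible region of the line. The highest elsewhere were an intron peak of score 117.7 nearest Psapl1 (chr5:36089203-36089555), one of 114.3 nearest Mir7681 (chr1:53851174-53851526), one of 101.5 nearest 4930427A07Rik (chr12:113168112-113168464) and one of 100 nearest Tmem243 (chr5:9087067-9087419). Then came peaks nearest Mlec at 96.7, Ngly1 at 87.7, Lta (lymphotoxin alpha) at 87.2, Cox4i2 at 84.8 and P2ry13 at 83.8. Each of these 9 peaks was in an accessible region of the line and in a contact bin.

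At the limit of the rule, the members closest to an Ikzf1 peak abutted one, in introns of Gch1 (chr14:47187733-47188085, score 23.8) and Rhoq (chr17:86969632-86969984, score 19.1). Just outside it were distal peaks that shared 1 base with an Ikzf1 peak, in an intron of Adck3 with a score of 36.7 and at chr16:84702871-84703223 with a score of 30.5. Only 428 members (2.35%) lay within 500 bp of an Ikzf1 peak, and the median gap was 67501.5 bp. The members nearest a start lay 101 bp from it, where the promoter annotation ends. Among them were peaks at Med4 (score 21.4), Hcfc2 (score 21) and Mospd1 (score 9.05).

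Members were spread over introns (8300) and intergenic DNA (8126), with 652 in exons, 493 in 5′ UTRs, 317 at transcription ends, 208 in 3′ UTRs, 119 in non-coding transcripts and 3 without annotation. Their median distance to the nearest start was 20780 bp, against 17250 bp for distal peaks with Ikzf1. Most members (76.9%, interval 76.2–77.5) lay outside annotated repeats, against 82.3% of distal peaks with Ikzf1 and 75.3% of the 57567 distal accessible regions of the line. LTR elements held 7.82% of members (7.44–8.22), against 5.70% of distal peaks with Ikzf1 and 6.82% of distal accessible regions. The ORR1E family alone held 251 members, 1.38% (1.22–1.56), against 0.536% (0.330–0.870) of distal peaks with Ikzf1 and 0.523% (0.467–0.585) of distal accessible regions. The related ORR1D2 held 115 members (0.631%, against 0.235% and 0.285%). L1Md_F2, a family of young L1 elements, held 80 members (0.439%, interval 0.353–0.546) and 0 of the 2983 distal peaks with Ikzf1 (interval up to 0.129%). It held 0.153% of distal accessible regions. Of the 80 members, 26 (32.5%) were in accessible regions, beside 67.9% of all members. The B3 SINE held 153 members (0.840%), against 0.335% (0.182–0.616) of distal peaks with Ikzf1 and 2.6% of distal accessible regions, so that it was more frequent than in the first and less than in the second. Simple repeats of GGAA or TTCC, which spell out the ETS core, held 22 members (0.121%), of which 2 were in accessible regions. These repeats held 0.067% (0.018–0.244) of distal peaks with Ikzf1 and 0.0087% of distal accessible regions. Reads from near-identical repeat copies can be placed in more than 1 way, so counts in young repeats are uncertain.

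Accessibility in the 230-238 line was the first readout that the rule did not use. Of the members, 12371 (67.9%, interval 67.2–68.6) overlapped an accessible region of the line by at least 1 bp, where 70.6% of all 21201 distal Fli1 peaks did. The share was 87.3% (86.1–88.4) for distal Fli1 peaks with Ikzf1, 89.5% for promoter peaks without Ikzf1, 96.8% for promoter peaks with it and 75.9% for distal Ikzf1 peaks without Fli1. The difference from distal peaks with Ikzf1 was -19.4 percentage points (Newcombe 95% interval -20.7 to -18.0). In the other direction, 12066 of 57567 distal accessible regions (21%, interval 20.6–21.3) held a member, and these were wider, at a median of 774 bp against 445 bp. All such intervals cover counting error over peaks, which are not independent replicates, and each list came from 1 call, so no test between animals or cultures was possible.

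The share was higher at higher scores. It was 52.5% (51.1–54.0) of the 4746 members with a score under 10, 63.1% from 10 to 15, 73.5% from 15 to 20, 83.3% from 20 to 30 and 89.4% (87.8–90.7) of the 1662 members at 30 or over. At matched scores of 10 or more the gap to peaks with Ikzf1 was smaller. From 10 to 15, 63.1% (61.8–64.3) of members and 77.1% (72–81.6) of peaks with Ikzf1 were accessible. At 30 or over the shares were 89.4% and 92.5% (90.9–93.9). Under 10 the gap was larger, at 52.5% of members and 83.3% (66.4–92.7) of only 30 peaks with Ikzf1. Members at less than 1 kb from a start were accessible in 85.6% of cases, against 73.7% from 1 to 10 kb, 68.7% from 10 to 50 kb, 58.6% from 50 to 100 kb and 51.8% beyond 100 kb.

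**Figure D1:**
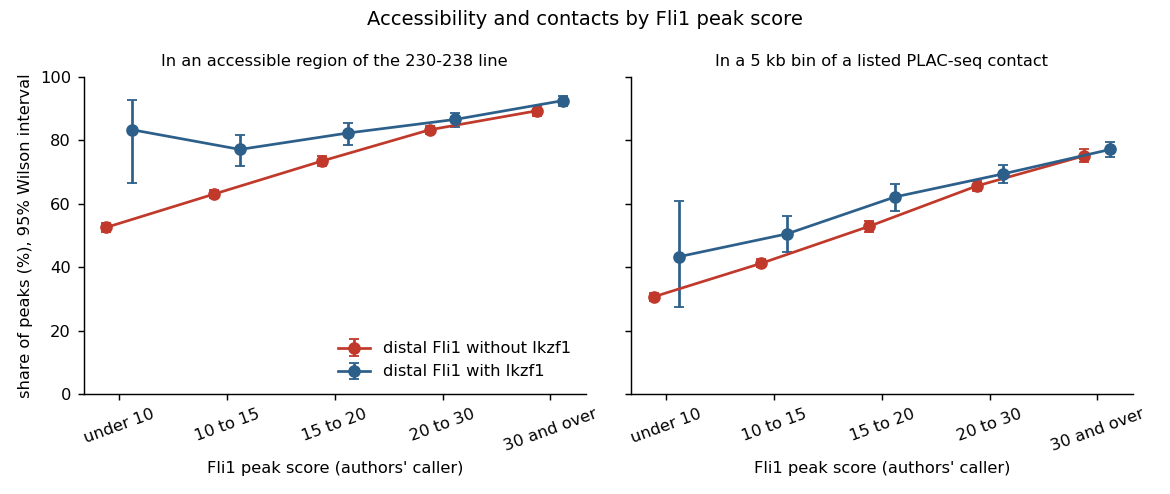
Share of peaks (y axis, percent with 95% Wilson intervals) in an accessible region of the 230-238 line (left) and in a 5 kb bin of a listed PLAC-seq contact (right), by band of Fli1 peak score (x axis), for distal Fli1 peaks without Ikzf1 (red) and with Ikzf1 (blue). Both shares are higher at higher scores, at 52.5% in the lowest band and 89.4% in the highest for accessibility without Ikzf1 and at 30.6% and 75.2% for contacts, and the classes lie closest at a score of 20 or more.

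The markers of the line were as its label says. Accessible promoter regions were listed for 9 of 13 pro-B markers, among them Pax5, Ebf1, Cd79a, Cd79b, Igll1, Vpreb1 and Rag1, for 1 of 3 T-cell markers (Cd3g), 1 of 3 myeloid (Lyz2), 1 of 2 erythroid (Gata1) and 0 of 3 stromal and 0 of 3 megakaryocyte markers. No expression was analysed here, so the Wt cells could be checked only at their Fli1 and accessible regions.

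The immunoglobulin heavy-chain locus held many members, few of which were accessible in the line. Igh had 89 members in 2.75 Mb, or 32.3 per Mb, against 6.92 per Mb over chromosomes 1 to 19 and X. Only 22 of the 89 (24.7%, interval 16.9–34.6) lay in accessible regions of the line. Igk, the kappa light-chain locus, held 46 members at 14.5 per Mb, of which 36 (78.3%, 64.4–87.7) were accessible. In successive windows of 500 kb from the constant-region end of Igh, 1 of 6, 0 of 11, 0 of 21, 3 of 15, 10 of 22 and, in the shorter last window, 8 of 14 members were accessible. The middle windows with 11 and 21 members held no accessible region of any kind in the line. Whether the line keeps this DNA was not tested, so a missing region there need not mean closed chromatin. The 6 Igh members with a score over 40 lay in the window of 21 and the one after it, had scores of 43.4 to 51.0, and none was accessible, the highest being at chr12:114545058-114545410. The T-cell receptor loci had 11.7 (Tcra), 16.5 (Tcrb) and 33.6 members per Mb (Tcrg), the last from 6 members in 0.178 Mb, and Igl held 4. The loci were chosen after their values were seen. Variable genes are near copies of each other, so reads there may be placed on a neighbouring copy, and its part in these counts was not tested.

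**Figure D2:**
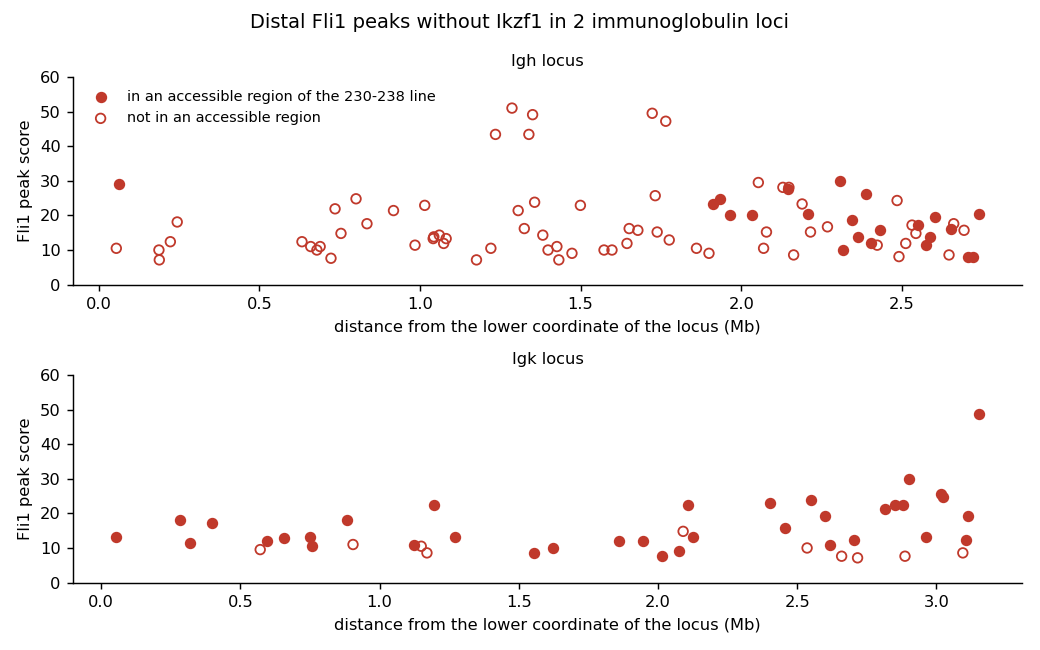
Fli1 peak score (y axis) of each distal Fli1 peak without Ikzf1 against its distance from the lower coordinate of the locus (x axis, Mb), for Igh (top, 89 peaks) and Igk (bottom, 46 peaks). Filled points lie in an accessible region of the 230-238 line, which 22 points in Igh and 36 in Igk do, and open points with scores up to 51.0 fill the middle of Igh.

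By nearest start, members belonged to 9044 genes, 50.8% of the 17799 genes named in the 3 lists, and among the 14476 genes nearest a distal accessible region 7704 had one (53.2%). Of these, 5128 had exactly 1 member and 62 had at least 10. The highest counts were in the antigen-receptor loci, under the names Mir6388 (34), Mir7094-2 (23) and Rpia (23). Outside them stood Lrrn3 (18), Tgfbr2 (17, 15 accessible), which encodes a TGF-beta receptor, Pik3r1 (16), the regulatory subunit of PI3 kinase, Chd7 (15, 13 accessible), a chromatin remodeller, and Runx1 (14, 10 accessible), a master factor of blood formation. Long genes and gene deserts collect more peaks, and counts were not divided by length.

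Among the B-lineage transcription factors, 15 of 17 measured genes had a member, all but Pax5 and Pou2f2, beside 50.8% of all named genes. They held 59 members, 49 of them accessible, beside 67.9% of all members. There were 9 at Tcf4 (the E-protein E2-2), 8 each at Bach2 and Bcl11a and 7 at Irf4. The highest scores were 56.7 upstream of Irf8 (chr8:120725304-120725656), 42.9 in an intron of Ikzf3 (chr11:98515559-98515911), which was not in an accessible region, and 42.4 at Foxo1 (chr3:52396210-52396562). Foxo1, which drives the recombinase genes, had 5 members. Of the other fixed genes, Lef1 had 6 members, Ikzf1 itself 2 and Tcf3 1. Ebf1 had 1 member, of score 9.05 and outside accessible regions.

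Genes of the pre-B-cell receptor and its signalling had a member in 12 of 19 cases. Beside this count and those of the next lists stands the share of all named genes with a member, 50.8%. Those with none included the surrogate light-chain genes Igll1, Vpreb1 and Vpreb3, the receptor genes Cd79a and Cd22 and the phosphatase gene Ptpn6. The surrogate light-chain gene Vpreb2 and the receptor genes Cd79b and Cd72 had members, as did the kinases Fyn (7) and Blk (3), the phospholipase Plcg2 (5) and the adaptor Blnk (2). Of these 27 members 24 were accessible, beside 67.9% of all members. For V(D)J recombination the count was 7 of 10, led by a peak of score 54.3 in an intron nearest Xrcc6, a subunit of the Ku end-joining factor, and with 4 members each at Rag2 and Dntt. Receptors and surface proteins had members at 19 of 20 genes, all but Cd24a, with 10 at the chemokine receptor Cxcr4, up to a score of 57.2, and 3 at the interleukin-7 receptor Il7r, up to 43.8. The highest was 61.5 upstream of the phosphatase gene Ptprc, which encodes CD45. Survival and cell-cycle genes counted 10 of 12, with 9 members at Bcl2l11, the gene of the death protein Bim.

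Stem and progenitor factors had members at 14 of 21 measured genes, beside 50.8% of all named genes. Fli1 itself had 4 (scores 10.5, 17.6, 35.7 and 13.8), and the strongest, at -29367 bp from its start (chr9:32570643-32570995), was accessible but in no contact bin. No member was nearest to Erg, Tal1, Meis1, Spi1 or Myc. Mef2c reached 49.5 and Lmo2 39.1, whereas none of the 3 members at Gfi1 or the 3 at Hhex was accessible.

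Lists of other lineages also held members, where 50.8% of all named genes had a member. Megakaryocyte genes, among them known Fli1 targets, had members at 6 of 10 measured genes, endothelial genes at 8 of 12, myeloid at 8 of 9, T-lineage at 5 of 11, natural killer at 6 of 7, erythroid at 2 of 5 and stromal at 3 of 6. In accessible regions lay 4 of 11 megakaryocyte, 8 of 23 endothelial, 6 of 9 myeloid, 8 of 10 T-lineage, 8 of 8 natural killer, 2 of 7 erythroid and 4 of 6 stromal members, beside 67.9% of all members. The vascular receptor gene Kdr had 8 members, with a highest score of 22.4 outside accessible regions, and the platelet factor gene Pf4 had 1 of score 25.3, not accessible either. Eng, an endothelial co-receptor of TGF-beta, had an accessible member of score 56.2. The lists are a description, since their genes differ in length and in the peaks around them.

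PLAC-seq enriches ligated DNA pairs that carry a histone mark, here the promoter mark H3K4me3, and the list of the line gives pairs of 5 kb bins called as interacting. Of the members, 8682 (47.7%, interval 46.9–48.4) lay in a bin of a listed contact, beside 50.7% of all distal Fli1 peaks and 52.7% of distal accessible regions. The share was 69.2% (67.5–70.8) for distal peaks with Ikzf1, a difference of -21.5 points (-23.3 to -19.7). It was 59.5% (58.6–60.4) for members in accessible regions and 22.6% (21.6–23.7) for the others. By score it was 30.6% of members under 10 and 75.2% of those at 30 or over, and at 30 or over peaks with Ikzf1 had 77.1%.

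Of the 8682 members, 861 shared their bin with an accessible promoter. Of the other 7821, 4015 (51.3%) touched a bin with an accessible promoter, against 992 of 1855 (53.5%) distal peaks with Ikzf1. The same share for all distal accessible regions was not computed. The median span over the members' contacts was 112500 bp, and a member in a bin had a median of 2 contacts. The promoter touched was that of the nearest gene for 692 of the 4015 (17.2%, interval 16.1–18.4), against 232 of 992 (23.4%, 20.9–26.1) for distal peaks with Ikzf1. The most contacts, 58, were listed for the bin of a peak at Cited2, a transcriptional co-regulator, and then 35 for one nearest Mir7224, 30 at Phlda1, 29 at Foxo3 and 29 at Atad1. Several of these bins hold a promoter of their own, and a bin of 5 kb cannot tell a peak from its neighbours.

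The Foxo1 peak of score 42.4, 128049 bp downstream of the start, had 7 contacts, 1 of them with the bin of the Foxo1 promoter. The Rag2 peak of score 35.3 (chr2:101598740-101599092), in an intron and at -25832 bp from the Rag2 start, touched the Rag1 and Commd9 promoters. The Vpreb2 peak of score 40.0 (chr16:17969302-17969654) touched the promoters of Vpreb2, a surrogate light-chain gene, and Dgcr14. The Lef1 peak of score 39.1, at -52908 bp from the start, touched the Lef1 promoter, as did peaks of score 15.7 and 6.67. Members at Mef2c, Pim1, Xrcc6, Tcf3 and Eng also touched the promoter of their own gene. By contrast, the highest-scoring members at Irf8, Ikzf3, Blnk, Dntt and Il7r had contacts but none with an accessible promoter. Those at Elf1, Cbfa2t3 and Mcl1 touched only promoters of other genes. These peaks are examples, and of the 4015 members counted above 17.2% touched the promoter of their nearest gene. The Cxcr4 intron peak of score 57.2 had 23 contacts, none with a bin that holds an accessible region annotated as promoter. This peak lay only 1132 bp downstream of the Cxcr4 start. The accessible region around it (chr1:128590702-128592761) was annotated as intron but held 331 tags of H3K4me3 in Wt cells. Whether the 23 contacts belong to the peak or to the nearby Cxcr4 start was not tested.

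The remaining readouts come from the authors' region tables, which cover accessible regions near genes selected as enriched in Wt. They hold 1017 of the 18218 members, so their values describe these and not all members. A choice of genes for their Wt level makes lower knockout values likely, and such values are not independent support. Each group was 1 column, a pool or a single library of 24557525 to 196071042 tags, so no replicate error exists and no test was made. Values are tags per region scaled to 10000000 per library, log2 ratios are of (tags + 1), and medians carry 95% order-statistic intervals over regions.

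Regions open in both Wt and Ebf1-KO cells held a member in 765 of 2309 distal cases (33.1%, interval 31.2–35.1). Regions open in Wt but not in Ebf1-KO cells did in 205 of 751 (27.3%, 24.2–30.6), beside 31.7% of all 3060. The difference of 5.83 points (2.03 to 9.46) went with width, at medians of 823 and 430 bp, and among regions of 500 to 1000 bp the shares were 34.0% and 34.7%, a difference of -0.69 points (-7.21 to 5.50). Members of both classes had the same median score of 18.35 and quartiles of 12.9 and 27.6. Of regions bound by Ebf1 in the 230-238 line, 318 of 916 open in Ebf1-KO (34.7%, 31.7–37.9) and 95 of 256 closed in Ebf1-KO (37.1%, 31.4–43.2) held a member, beside 35.2% of all 1172, a difference of -2.39 points (-9.17 to 4.1). Among Ebf1-bound regions of 500 to 1000 bp the shares were 35.2% and 39.6%, a difference of -4.45 points (-13.6 to 4.48), and both intervals span 0.

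The ratio of accessibility in E2A-KO over Wt cells was lower at these regions than at regions of the same class with no Fli1 or Ikzf1 peak, while the E2A-KO signal itself was not lower. In regions open in Wt and Ebf1-KO, those with a member had a median of 12.0 tags in E2A-KO and 30.1 in Wt, with a median log2 ratio of -1.05 (-1.11 to -0.97), and those with no peak 7.93 and 12.2 tags, at -0.59 (-0.63 to -0.55). In regions open in Wt only, the medians were 3.38 and 13.7 tags with a member, at -1.90 (-2.05 to -1.67), and 3.03 and 7.87 tags with no peak, at -1.28 (-1.43 to -1.17). Regions with a distal Fli1 and Ikzf1 peak were lower still, at -1.57 and -2.64. The median of all regions was -0.76, so that the members of the 2 classes stood at -0.30 and -1.14 relative to it. Under TMM scaling regions open in both stood at -0.20 with a member and 0.24 with no peak, and regions open in Wt only at -1.14 and -0.57. At least 2-fold lower values were found at 400 of 765 (52.3%) and 177 of 205 (86.3%) regions with a member, against 26.1% and 63.1% with no peak, where 37.6% of all 4829 regions passed this fold.

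The ratio was lower at higher Fli1 scores. In regions open in both it was -0.72 for scores under 15, -1.15 from 15 to 30 and -1.55 from 30, and in regions open in Wt only -1.44, -2.04 and -2.69. The Wt signal was higher at higher scores as well, with medians of 16.7, 34.0 and 53.5 tags in regions open in both, while the E2A-KO medians were 9.68, 12.9 and 15.4. Member regions were also wider and stronger in Wt than regions with no peak. Among regions of 500 to 1000 bp the ratios were -1.0 with a member and -0.51 with no peak in the first class and -2.02 and -1.13 in the second, and the part of the Wt level in the difference was not tested.

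Of the listed genes, 25 had 38 regions with a member in this table. As deposited, the E2A-KO signal was at least 2-fold lower in 28 of them. Beside this stand 56.6% of the 1046 regions with a member and 37.6% of all 4829 regions. Under TMM scaling 14 were at least 2-fold lower, but the share of all regions at that limit was not computed. The count of 14 is therefore not read as a result. The TMM median log2 ratio was -0.32 over the 1046 regions with a member and 0.017 over all 4829 regions. In 1 of the 38 regions the signal was higher as deposited. Under TMM scaling more of the 38 lay above 0, among them regions of Ccnd3 (log2 ratio 0.51) and Csf2ra (0.34). The lowest ratio was at the ligase gene Lig4, whose intron region (chr8:9975351-9975610) held 1.63 tags in E2A-KO and 28.9 in Wt. A region of the surface enzyme gene Bst1 (chr5:43824304-43825074) held 16.2 tags in E2A-KO and 174 in Wt, and a region of the ETS gene Spib (chr7:44531211-44531615) 4.90 and 47.0. The kinase gene Btk had 1.17 tags in E2A-KO and 17.3 in Wt at chrX:134564332-134564704. The Foxo1 region around the peak of score 42.4 (chr3:52395924-52396683) held 16.2 and 66.5 tags. The exception as deposited was a region of Irf8 (chr8:120715073-120715849), with 25.2 tags in E2A-KO and 16.7 in Wt. Relative to the median of all regions, 30 of the 38 were lower. The Lig4, Bst1, Spib, Btk and Irf8 regions were picked after their values were seen.

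**Figure D3:**
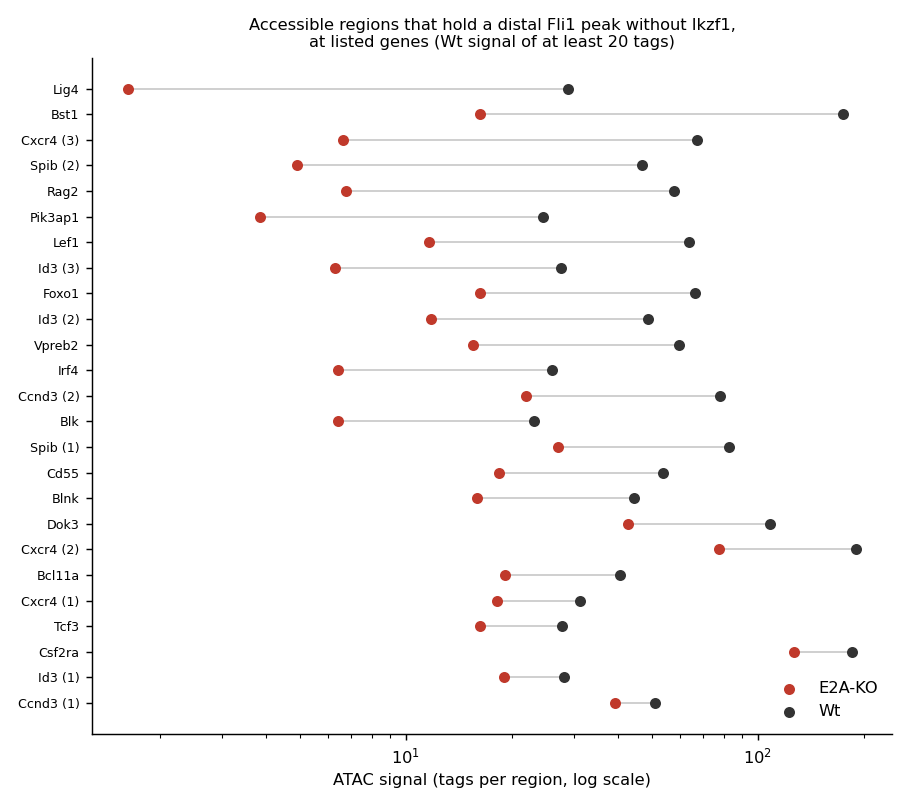
ATAC signal (x axis, tags per region, log scale) in E2A-KO (red) and Wt (black) cells at the 25 regions of listed genes that hold a distal Fli1 peak without Ikzf1 and reach 20 tags in Wt, ordered by ratio, with numbers where a gene has several. E2A-KO is lower in all 25 as deposited, by at least 2-fold in 20, and lower in 20 under TMM scaling. As deposited, 37.6% of all 4829 regions were at least 2-fold lower. The limit of 20 tags in Wt favours lower ratios and leaves out the Irf8 region (25.2 tags in E2A-KO, 16.7 in Wt).

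By the rule of largest change, the lowest regions were near Ufm1 (chr3:53974971-53975720, 3.73 tags in E2A-KO, interval 2.55–5.27, against 86.2 in Wt, 81.6–91.0) and in an intron near Col6a6 (chr9:105803195-105803952, 3.15 against 74.4). Near Gopc and Man2a1 the values were 2.33 against 48.5 and 3.96 against 71.5. In the other direction 2 of 1046 regions with a member were at least 2-fold higher, beside 1.01% of all regions. The highest was in a 3′ UTR at Tbc1d9 (chr8:83086587-83087325, 31.0 tags in E2A-KO and 11.8 in Wt).

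The histone marks, RNA polymerase II (PolII) and CUT&RUN H3K27ac compared Ebf1-KO with Wt cells. In regions open in Wt only, those with a member had a median H3K4me2 signal of 2.88 tags in Ebf1-KO and 17.3 in Wt, at a log2 ratio of -2.11 (-2.37 to -1.91), against -1.28 (-1.48 to -1.14) with no peak. For H3K27ac, the mark of active enhancers, the ratios were -1.88 (-2.14 to -1.66) and -1.34 (-1.49 to -1.25), and for PolII -2.14 (-2.31 to -1.93) and -1.17 (-1.38 to -1.03). H3K4me3 stood at -1.40 (-1.71 to -1.18) and -0.95 (-1.12 to -0.79). The repressive mark H3K27me3 had medians of 0.97 tags in Ebf1-KO and 0.72 in Wt, at a median ratio of 0.20 (0.06 to 0.39). It was at least 2-fold higher in Ebf1-KO at 58 of these 205 regions (28.3%), against 43.8% with Ikzf1, 19.5% with no peak and 16.9% of all 3642 regions.

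In regions open in both genotypes the ratios were closer to 0. With a member, H3K4me2 stood at -0.09 (-0.20 to 0.01), H3K4me3 at 0.24 (0.12 to 0.33), H3K27ac at -0.62 (-0.71 to -0.54) and PolII at -0.60 (-0.71 to -0.51), and with no peak at 0.07, 0.22, -0.43 and -0.29. Under TMM scaling the sign turned at these regions with a member for H3K4me2 (0.045), H3K27ac (0.093) and PolII (0.064), so no direction is given for them. Medians of all regions were -0.18 for H3K4me2, 0.02 for H3K4me3, -0.03 for H3K27me3, -0.70 for H3K27ac and -0.67 for PolII. Relative to these, H3K27ac and PolII at open member regions were close to the typical region. H3K4me2, H3K27ac and PolII were all at least 2-fold lower at 120 of 205 member regions open in Wt only (58.5%, interval 51.7–65.1), against 36.2% with no peak, and at 120 of 765 open in both (15.7%, 13.3–18.4), against 5.76%, beside 18.3% of all 3642 regions. Over all 1005 regions with a member in this table, at least 2-fold lower values were found at 362 for H3K4me2 (36.0%, beside 30.3% of all 3642), 284 for H3K4me3 (28.3%, beside 25.2%), 43 for H3K27me3 (4.28%, beside 4.67%), 428 for H3K27ac (42.6%, beside 37.4%) and 467 for PolII (46.5%, beside 39.7%). At least 2-fold higher values were found at 70 for H3K4me2 (beside 7.58%), 155 for H3K4me3 (beside 15.4%), 164 for H3K27me3 (beside 16.9%), 7 for H3K27ac (beside 1.15%) and 64 for PolII (beside 7.03%). With Ikzf1 the shares with all 3 lower were 77.1% of 48 and 28% of 271.

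**Figure D4:**
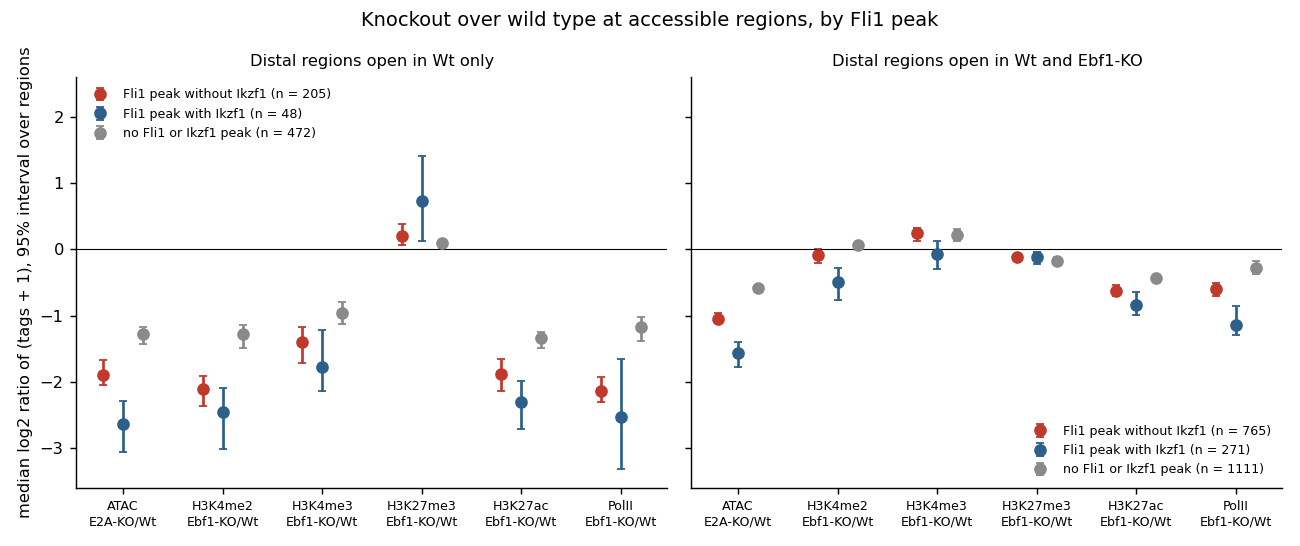
Median log2 ratio of (tags + 1) (y axis, with 95% order-statistic intervals over regions) for ATAC in E2A-KO over Wt and for marks and PolII in Ebf1-KO over Wt (x axis), at distal regions open in Wt only (left) and open in both genotypes (right) that hold a Fli1 peak without Ikzf1 (red), a Fli1 peak with Ikzf1 (blue) or neither factor (grey). For ATAC, H3K27ac and PolII the red medians lie between blue and grey in both panels, and H3K27me3 stays near 0 in the right one.

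Another region near Ufm1 (chr3:53977358-53977917, Fli1 score 39.1), bound by Ebf1 in the line, held 2.40 tags of H3K4me2 in Ebf1-KO and 24.5 in Wt, 1.85 and 66.6 of H3K27ac, 1.37 and 70.6 of PolII, and 1.57 and 39.4 of EP300. BRG1 there was at 0 tags in Ebf1-KO (interval up to 0.77) and 42.6 in Wt, and ATAC at 4.08 in E2A-KO and 71.3 in Wt. The Foxo1 region, open in both genotypes, held H3K27ac at 10.6 tags in Ebf1-KO and 44.8 in Wt, but held 1.03 tags of PolII (0.21–3.00) in Ebf1-KO and 80.4 (69.8–92.1) in Wt. At a region near Cr2 (chr1:195201676-195202766), the complement receptor gene of B cells, H3K4me2 was 2.40 in Ebf1-KO and 79.2 in Wt, and H3K4me3 0.20 and 32.6. In an intron of Klhl14 (chr18:21654320-21655486) H3K27me3 was 43.6 tags in Ebf1-KO (39.1–48.5) and 1.07 in Wt (0.40–2.07), while H3K27ac was 1.48 and 49.3.

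Some member regions were higher in Ebf1-KO. An intron region of Akap5 (chr12:76318501-76319598), a scaffold protein for kinases, held 88.3 tags of H3K4me3 in Ebf1-KO (84.2–92.5) and 1.30 in Wt (0.63–2.40), 71.0 and 7.04 of H3K4me2, and 56.8 and 15.6 of PolII. Its Fli1 score was 8.58. A region near 5430437J10Rik (chr15:5445978-5447231) held 46.6 and 2.74 tags of H3K4me3, and regions near Casc1 and Zbtb2 70.8 and 3.00, and 74.2 and 5.35. The lowest H3K4me3 ratio was on the Y chromosome, in an intron of Ddx3y (chrY:1285742-1286820), with 0.10 tags in Ebf1-KO and 45.7 in Wt. H3K4me2 and PolII were at 0 there in Ebf1-KO, at 10.2 and 12.1 tags in Wt, but H3K27ac was 23.9 in Ebf1-KO and 22.6 in Wt. Since the labels do not give the sex of the fetuses, genotype and sex cannot be told apart at this region.

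BRG1 and EP300 were measured at the Ebf1-bound regions. In regions closed in Ebf1-KO, those with a member had a median of 3.78 tags of BRG1 in Ebf1-KO and 14.4 in Wt, at -1.59 (-1.90 to -1.43), and of EP300 2.98 and 11.9, at -1.65 (-2.09 to -1.48). With no peak the ratios were -1.02 (-1.38 to -0.68) and -1.07 (-1.47 to -0.69). In regions open in Ebf1-KO they were -0.13 (-0.25 to -0.01) for BRG1 and -0.53 (-0.71 to -0.32) for EP300 with a member, and -0.01 and -0.08 with no peak, where all regions stood at -0.29 and -0.56. Under TMM scaling the sign turned at these open regions with a member, to 0.17 for BRG1 and 0.017 for EP300. At least 2-fold lower BRG1 was found at 75 of 95 closed member regions (78.9%), against 51.4% of closed regions with no peak and 64.5% of all closed regions, beside 32.4% of all 1172. For EP300 it was 69 of 95 (72.6%), against 50.5% and 62.5%, beside 36.9%. A region near Gm2447 (chr3:52638682-52639315), with a Fli1 peak of score 47.2, had 0 tags of EP300 in Ebf1-KO (up to 0.58) and 69.9 in Wt. The label of the Wt EP300 library leaves doubt about its antibody, so EP300 ratios hold only if the label is right. Of the 413 regions with a member, 41 were at least 2-fold higher for BRG1 (9.93%, beside 9.98%) and 41 for EP300 (beside 11%). Regions near Grm4 and Snx9 were higher in Ebf1-KO, with 44.9 against 4.35 and 66.3 against 16.7 tags of BRG1.

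As deposited, the Ebf1-bound regions had more ATAC signal after 4OHT than at 0 h, but under TMM scaling the median log2 ratios over all regions with a member lay between -0.019 (24 h over 0 h) and 0.030 (6 h over 0 h). The direction over all member regions therefore depended on the scaling at 24 h, and that at member regions open in Ebf1-KO at 24 h and 72 h. At closed regions with a member the TMM ratios were above 0 at the 3 times, at 0.063 (6 h), 0.14 (24 h) and 0.25 (72 h). At regions closed in Ebf1-KO with a member, the median signal was 2.96 tags at 0 h, 4.03 at 6 h, 5.19 at 24 h and 4.90 at 72 h, and with no peak 2.75, 3.17, 3.82 and 4.03. At regions open in Ebf1-KO it was 13.6, 17.1, 21.6 and 23.3 with a member, and 9.09, 11.8, 12.8 and 14.1 with no peak. The median log2 ratio of 72 h over 0 h was 0.69 (0.43 to 0.88) at closed regions with a member and 0.34 (0.19 to 0.56) with no peak, and 0.56 (0.49 to 0.63) and 0.43 (0.39 to 0.49) at open regions. Over all regions the medians were 0.26 (6 h), 0.47 (24 h) and 0.50 (72 h), and regions with a member stood 0.08 above that of 72 h. Under TMM scaling the 72 h ratios at closed regions were 0.25 with a member and -0.11 with no peak, and at open regions -0.01 and -0.10. At least 2-fold higher values were found at 28 of 413 member regions at 6 h (6.78%, beside 5.97% of all 1172) and at 86 at 24 h (20.8%, beside 16.1%). At least 2-fold lower values were found at 0 at 6 h, 5 at 24 h and 1 at 72 h, beside 0.597%, 0.853% and 0.597% of all regions. At 72 h, 98 of 413 regions with a member (23.7%) were at least 2-fold higher than at 0 h, beside 18.2% of all regions.

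**Figure D5:**
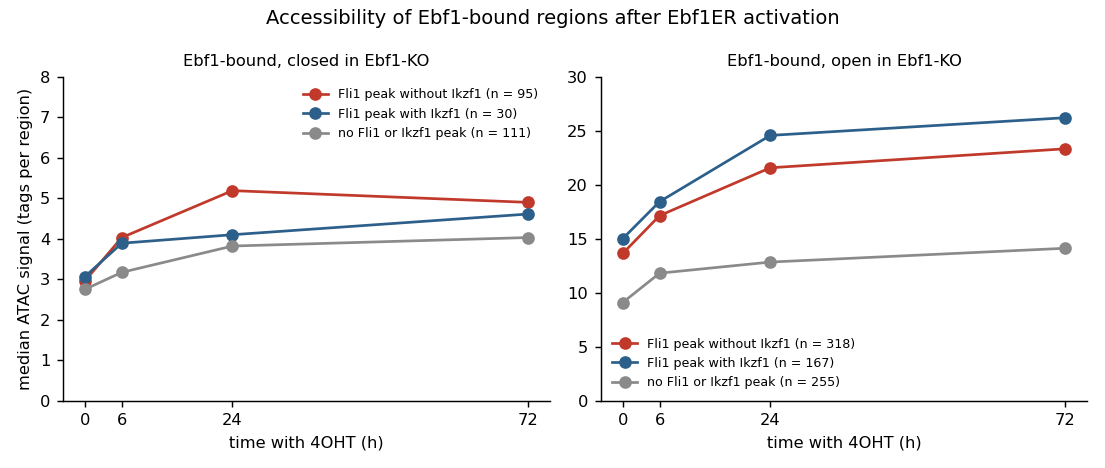
Median ATAC signal (y axis, tags per region) at 0, 6, 24 and 72 h of 4OHT (x axis) in Ebf1-KO cells with Ebf1ER, at Ebf1-bound regions closed (left) and open (right) in Ebf1-KO that hold a Fli1 peak without Ikzf1 (red), with Ikzf1 (blue) or neither factor (grey). The y scales differ; closed regions with a Fli1 peak without Ikzf1 stay at or below 5.19 tags, and the red line lies above the grey at every time.

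The highest ratio at 72 h was near Pde8a, a phosphodiesterase gene (chr7:81196232-81197362), at 5.29 tags at 0 h, 16.7 at 6 h, 26.8 at 24 h and 37.7 at 72 h. Akap12 (chr10:4260933-4261962) had 5.50, 9.51, 24.0 and 30.3, and Prkce, a kinase gene (chr17:86209255-86210255), 12.1, 40.9, 56.5 and 44.9. Scd1 (chr19:44376359-44377265), closed in Ebf1-KO, had 4.23, 7.20, 21.3 and 23.3. The Pde8a and Akap12 regions were higher at each later time, whereas Prkce was highest at 24 h. Near Ccdc9 (chr7:16294786-16295843) the signal was 60.9, 47.8, 65.8 and 49.6 tags, lowest at 6 h and highest at 24 h. The Rag2 region (chr2:101598305-101599187) had 5.92, 6.91, 7.92 and 13.8 tags and the Ufm1 region 5.29, 6.91, 12.6 and 15.3, all below the 58.0 and 71.3 tags of the Wt cells in the separate E2A table, a level set across tables that were each scaled on their own.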

How the data were processed

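ChIP-seq, CUT&RUN, ATAC-seq and PLAC-seq files of 54 samples were used. The deposited peak score and focus ratio (a fraction, used only as a column check) are the authors', from 1 library each of Fli1 and Ikzf1 against input. Regions were annotated with HOMER on mm10, per the file headers. The accessible list of the line rests on peaks reproduced between its samples, and its score column is 0 throughout as deposited. Contact count, p-value and q-value of each bin pair are deposited by the authors at q 0.05. The signal in the region tables was scaled by the authors to 10000000 tags per library, per the file headers, and not divided by length. The submitters' processing notes name Bowtie2 2.3.5, HOMER 4.10, SAMtools 1.9 and HiC-Pro 2.11.1.

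Overlap needed 1 bp. Tags were recovered from the signal and the library totals. Log2 ratios used a pseudocount of 1 tag, a 2-fold limit counted regions, and TMM factors (edgeR 4.0.16, R 4.3.3) were the alternative scaling, within each assay. Other steps used Python 3.11.15, pandas 2.3.3 and SciPy 1.17.1, and were tested on simulated data. Intervals are Wilson (shares), Newcombe (differences), Poisson (single values) and order-statistic (medians), at 95%. Each group was 1 column, so the planned test across samples could not be run. The column of Wt ATAC is named as a pool of 6 libraries, where 3 Wt ATAC samples are labelled, and the 6 h and 72 h libraries have near-equal totals of 34710011 and 34710016 tags. Of the ATAC value columns, 2 with no labelled sample were not used. Motifs were searched only in RefSeq promoter windows, as no genome was used.

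Members and lists were chosen with earlier results of these data known. Named were the 10 highest scores, up to 4 genes per list by score, the 8 bins with most contacts, the 4 regions with the largest ratio in each direction per comparison among those with 20 tags or more, and a fixed set of regulators. The Igh, Igk and other receptor loci, the repeat families, the genes with most members and the listed regions singled out in the E2A-KO comparison were chosen after their values were seen.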

Additional observations from a re-analysis of the deposited data

How the results depend on the processing

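No paired analysis was possible because each group was 1 column or 1 list, and for the same reason no replicate could be left out. Of the recomputed values, 38 stayed within their interval, 25 moved beyond it and 3 reversed. Keeping only peaks with a score at or above the median of all Fli1 peaks left 6694 members, of which 82.7% were accessible and 65.0% in a contact bin, and they lay in 19.5% of regions open in both and 16.0% of regions open in Wt only. Members over 3000 bp from a start had a median score of 12.9, 65.2% accessible and 41.7% in a bin. Requiring overlap of 0.5 of the shorter region gave 66.2% accessible. Removing members within 500 bp of an Ikzf1 peak gave 46.9% in a bin, and contacts with q under 0.01 gave 38.4%. An ETS word lay within 100 bp of the centre in 32.1% of windows.

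Under TMM scaling the median log2 ratios at regions with a member were -0.32 for E2A-KO ATAC (main -1.15), 0.030 at 6 h (0.29), -0.019 at 24 h, a reversal (0.51), 0.028 at 72 h (0.58), -0.25 for H3K4me2 (-0.38), -0.11 for H3K27ac (-0.80), -0.24 for PolII (-0.88), -0.073 for BRG1 (-0.36) and -0.23 for EP300 (-0.77). With at least 10 tags in the larger value they were -1.28 for E2A-KO ATAC, -0.88 for H3K27ac and -1.01 for PolII. H3K4me3 reversed to 0.22 (main -0.07, 691 regions left) and H3K27me3 to 2.22 (main -0.05, 77 regions left), since this filter keeps fewer regions. Among regions of 500 to 1000 bp, chosen after seeing the data, EP300 was -0.92, and 34.7% of regions open in Wt only held a member. TMM scaling also turned the sign at member regions open in both for H3K4me2 (0.045), H3K27ac (0.093) and PolII (0.064), and at open Ebf1-bound member regions for BRG1 (0.17) and EP300 (0.017), so directions there, and over all member regions at 24 h of 4OHT, depended on the scaling. With 1 column a group, the spread between cultures was not measured, and regions with few tags, such as those of H3K27me3, carry wide counting intervals.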
